A study of Mus musculus with 4 samples.

Results

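The genes described here make fibrillar collagen fit for use: they hydroxylate and fold the procollagen chain, add sugars to it, carry it out of the cell, cut off its propeptides and crosslink the fibril. The 40 members were taken by name from the gene rows of the deposited matrices, out of 32285 genes, and all 40 rows were present in all 4 libraries. They fall into 13 genes of proline hydroxylation and folding, 7 of lysine hydroxylation and glycosylation, 8 of secretion, 7 of propeptide cleavage and 5 of crosslinking. The rule names genes and has no cutoff on a measured value, but the list was drawn up with earlier results of these data known.

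The study asked how lymphoma B cells change the stroma and blood vessels of bone marrow. Stromal and endothelial cells were sorted from femurs of C57BL/6 mice of genotype Rag2-/-gammac-/-, a genotype without mature lymphocytes that all groups shared, and were sequenced in 4 libraries by droplet-based 3-prime counting. The control library (Ctrl) came from ungrafted mice at steady state, the sham library (Sham_D40) from mice injected with PBS and taken at day 40, and the graft libraries (Graft_D19 and Graft_D40) from mice whose femur received DOHH2, an established human B cell lymphoma line, taken at day 19 and day 40. Each group is 1 library, and how many mice were pooled in it and their age are not given in the sources used here. There is therefore no replicate check: no test between conditions was made, and every interval printed covers counting error only. Marrow and bone fragments were digested with collagenase, depleted of blood cells with beads and sorted for stroma (Cd31 negative, Cd51 positive, Cd200 positive) and endothelium (Cd31 positive, Sca1 positive), both negative for Cd45 and Ter119. The sort and the digestion therefore set which cells, and how many of each type, could be seen.

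Collagen chains are made in the endoplasmic reticulum, where prolyl 4-hydroxylases stabilise the triple helix, prolyl 3-hydroxylase complexes and peptidyl-prolyl isomerases assist its folding, and the chaperone Hsp47, encoded by Serpinh1, holds it until it leaves. Lysyl hydroxylases and galactosyltransferases modify lysines that later carry crosslinks, large COPII carriers take the rod-like procollagen to the Golgi, and secreted proteases trim its ends so that fibrils form. Lysyl oxidases then link the chains covalently, the step known for stiffening tissue, and inherited loss of many of these genes causes brittle bone or loose connective tissue.

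The libraries held 5537 to 7668 barcodes and 18533482 to 72204599 gene UMIs, and the control was the shallowest. After filtering and removal of called doublets, 18281 cells remained, of which 16995 passed a marker gate into a class and 1286 (7.03%) did not. The gate scores 10 to 14 markers for each of the 6 classes described here, 1034 cells lay within 0.05 of its margin, and 91.6% of the gated cells sat in a cluster of the same name when cells were clustered without the members and the collagens. For each class and library, the UMIs of all its cells were added up gene by gene and scaled to the class total, and the result is given as CPM, the usual count normalised for depth. Where 4 levels follow each other below, they are of the control, the sham, the day-19 graft and the day-40 graft, in this order. LepR-like stroma, the perivascular reticular cells that support haematopoiesis, had 1926, 2232, 2007 and 1521 cells, osteolineage-like cells had 128, 181, 288 and 244, chondrocyte-like cells 259, 414, 737 and 978, fibroblast-like cells 29, 125, 76 and 112, pericyte-like cells 55, 46, 43 and 129 and endothelium 1472, 1262, 1345 and 1283. All 14 LepR-class markers had UMIs in LepR-like stroma in all 4 libraries, and their summed level was 57560.4, 61943, 48435 and 32703 CPM. In the day-40 graft these markers were lower than in the other libraries, and the share of cells in no class was 11.8%. A cluster with Rpl10l, Rpl9-ps6 and Ms4a1 among its leading genes held 15, 0, 66 and 230 cells. Over all libraries 299 of its cells were in no class and 6 in LepR-like stroma, and their origin was not tested. The control chondrocyte-like cells were shallow, with a median of 1519 UMIs against 21716 to 25142 in the other libraries. Fewer cells of a type and less RNA per cell cannot be told apart within a summed class. Between any 2 libraries 11 to 15 cell barcodes were shared.

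Parts of the machinery were divided between cell types by isoform. Among the 6 gated classes, chondrocyte-like cells held the highest level of 15, 15, 14 and 13 members in the 4 libraries, osteolineage-like cells of 9, 11, 13 and 13 and LepR-like stroma of 7, 6, 4 and 7. Among the 5 classes compared below, which leave out the small pericyte-like class, 29 of the 40 members had the same leading class in all 4 libraries: 12 in chondrocyte-like cells, 8 in osteolineage-like cells, 6 in LepR-like stroma, 2 in fibroblast-like cells and Plod1 in endothelium. The like count over all genes was not made. Some of these leads were small, such as 1.01-fold to 1.09-fold for Mia2, 1.08-fold to 1.29-fold for P3h3 and 1.14-fold to 1.49-fold for P4hb. Others were wide, such as 3.54-fold to 10.7-fold for Colgalt2. In each library the classes were sequenced together, so these levels compare classes within a library. The summed level of the 40 members was 9407, 9069, 10916 and 10669 CPM in chondrocyte-like cells, 6953, 8775, 10816 and 10219 CPM in osteolineage-like cells, 5973, 7253, 6883 and 6704 CPM in fibroblast-like cells, 5652, 6250.1, 6256 and 7194 CPM in LepR-like stroma and 2229, 2497, 2759 and 2762 CPM in endothelium.

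**Figure D1:**
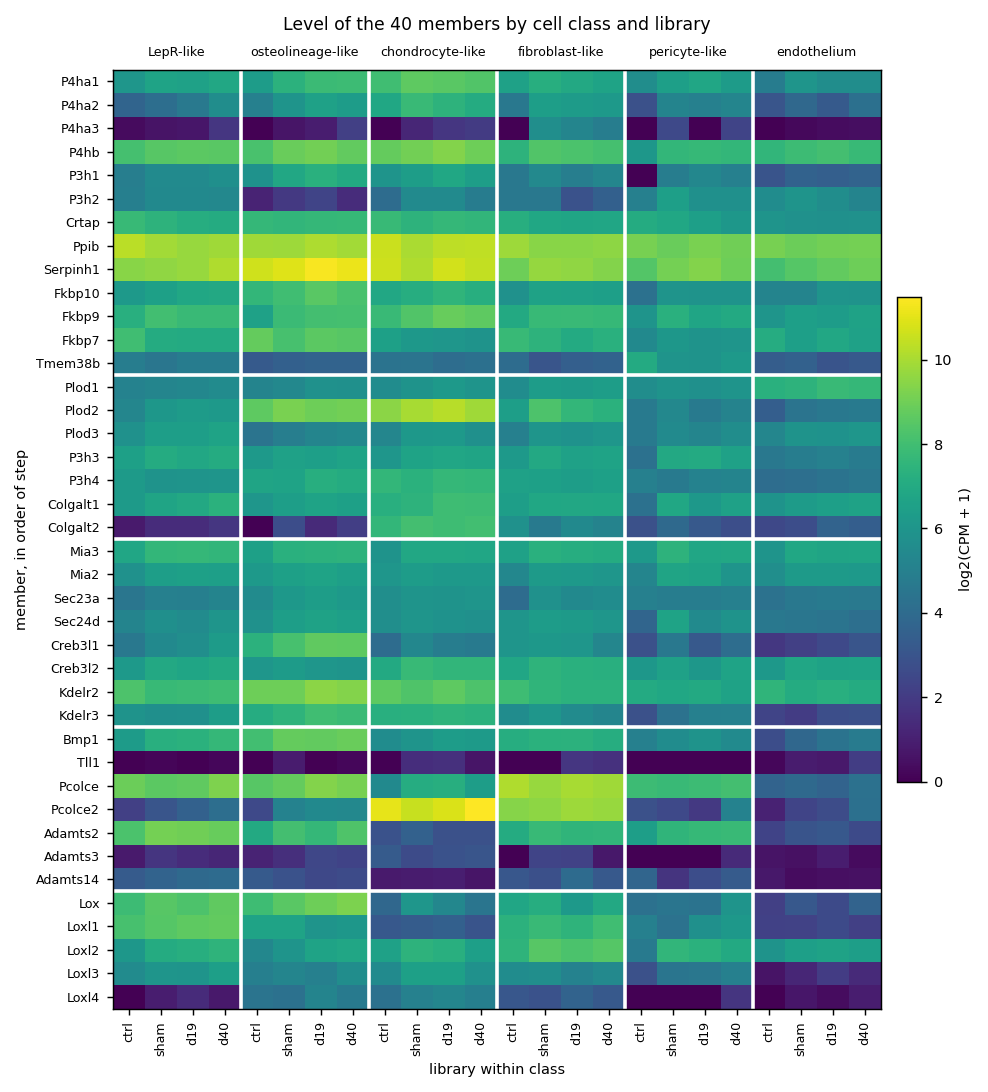
Level of each of the 40 members, as log2(CPM + 1), with members in rows ordered by step and separated by white lines, and with the 6 gated classes in columns, each with its 4 libraries (control, day-40 sham, day-19 graft, day-40 graft). Ppib and Serpinh1 are high in every class, Pcolce2 and Colgalt2 are high in chondrocyte-like cells, Creb3l1 in osteolineage-like cells and Plod1 in endothelium, and Tll1 is near 0 throughout.

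The 3 lysyl hydroxylases showed the division plainly. Plod2, whose product hydroxylates the telopeptide lysines that bone-type crosslinks use, was at 721 CPM in the control, 1009 in the sham, 1215 in the day-19 graft and 916 in the day-40 graft in chondrocyte-like cells and at 395, 571, 493 and 531 CPM in osteolineage-like cells. It was far lower in LepR-like stroma, at 37.6, 67.7, 79.2 and 74.002 CPM, and in endothelium, at 9.97, 20.1, 23.7 and 24.8 CPM. Plod1, which acts on lysines of the helix, was instead highest in endothelium, at 158, 173, 219 and 197 CPM, where the next class was 2.14-fold to 3.38-fold lower in each library. Plod3, which also transfers glucose and serves the collagen IV of basement membranes, led in LepR-like stroma at 55.8, 84.8, 87.1 and 99.7 CPM, but its distance to the next class reached 1.5-fold in the day-40 graft alone. The galactosyltransferases split likewise: Colgalt1 was at 75.4, 105, 121 and 163 CPM in LepR-like stroma and 150.3, 171, 241 and 233 CPM in chondrocyte-like cells, whereas its paralogue Colgalt2 was at 193, 265, 239.7 and 255 CPM in chondrocyte-like cells and at or under 11.8 CPM in LepR-like stroma, osteolineage-like cells and endothelium in all 4 libraries.

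The enhancers of procollagen C-proteinase divided between connective tissue and cartilage. Pcolce, the enhancer of Bmp1, was highest in fibroblast-like cells at 1099 CPM in the control, 847 in the sham, 1002 in the day-19 graft and 915 in the day-40 graft. Its homologue Pcolce2 was at 2127, 1453, 1845 and 2882 CPM in chondrocyte-like cells, the highest level of any member there, and at 671, 753, 895 and 844 CPM in fibroblast-like cells. Pcolce lay 1.47-fold to 2.28-fold above the next class, and Pcolce2 1.93-fold to 3.41-fold. Fibroblast-like cells thus carried both, whereas chondrocyte-like cells held Pcolce at 42.96, 136, 144 and 82.1 CPM. Bmp1, the C-proteinase itself, led in osteolineage-like cells at 254, 432, 423 and 463 CPM, and Adamts2, the main N-proteinase of collagen I, led in LepR-like stroma at 299, 548, 513 and 452 CPM.

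Among crosslinking enzymes, Lox led in osteolineage-like cells with LepR-like stroma next, and Loxl1 led in LepR-like stroma. Lox was at 241, 377, 493 and 605 CPM in osteolineage-like cells and 234, 358, 315 and 414 CPM in LepR-like stroma, and no higher than 11.7 CPM in endothelium in any library. Loxl1, known for elastic fibre upkeep, was highest in LepR-like stroma at 279, 346, 399 and 421 CPM, 1.56-fold to 2.28-fold above fibroblast-like cells, the next class. Loxl2, which also acts on collagen IV, led in fibroblast-like cells at 179, 364, 302 and 347 CPM. It was the main lysyl oxidase gene of endothelium taken as a whole, at 58.8, 87.99, 98.3 and 84.96 CPM. P4ha3, a prolyl 4-hydroxylase subunit, was nearly confined to fibroblast-like cells in the 3 deeper libraries, at 49.6, 36.98 and 28.4 CPM in the sham, the day-19 graft and the day-40 graft, against at most 3.50 CPM in the other 4 classes compared. The 10 fibroblast-like cells richest in P4ha3 held 53.6%, 72.4% and 65.9% of its UMIs in those 3 libraries. The control held 29 fibroblast-like cells, in which P4ha3 had no UMI, and 3 counts there would be 23.4 CPM.

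The transcription factors of the secretory step divided by skeletal lineage. Creb3l1 (OASIS), which drives collagen and secretory genes in osteoblasts, was at 164, 286, 406 and 393 CPM in osteolineage-like cells, 2.64-fold to 6.24-fold above the next class. Creb3l2, its relative in chondrocytes, was highest in chondrocyte-like cells at 126, 213, 191 and 188 CPM, within 1.23-fold of fibroblast-like cells in each library. Osteolineage-like cells also led for Serpinh1, Fkbp10, Fkbp7 and Kdelr2, though Serpinh1 in the control was within 1.02-fold of chondrocyte-like cells. In every class and library the most abundant folding member was Serpinh1 or Ppib, the cyclophilin B of the prolyl 3-hydroxylase complex. The levels of Serpinh1 and Ppib were 499, 824, 769 and 652 CPM and 889, 709, 689.9 and 747 CPM in fibroblast-like cells, 345, 550.0, 654 and 498 CPM and 567, 469.7, 584 and 512 CPM in pericyte-like cells, and 262, 347, 430.1 and 497 CPM and 569.7, 483, 535 and 537 CPM in endothelium. Pericyte-like cells, with 43 to 129 cells a library, had Kdelr2 at 129, 116, 126 and 98.9 CPM, Mia3 at 73.9, 170.0, 112 and 118 CPM, P3h3 at 18.5, 120.4, 129 and 94.04 CPM, Pcolce at 234, 219.5, 232 and 265 CPM and Loxl2 at 24.6, 189, 159 and 124 CPM. Their Tmem38b, a cation channel of the endoplasmic reticulum whose loss causes brittle bones, was at 129, 61.4, 58.7 and 72.1 CPM, above every class compared in each library.

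Tll1 stayed at or under 3.30 CPM and Adamts3 at or under 8.75 CPM in the 5 classes compared. Adamts14 was at 8.81, 11.7, 14.4 and 15.4 CPM in LepR-like stroma, the highest of the 5 classes apart from the day-19 graft, where fibroblast-like cells were at 15.3 CPM. Loxl4 was at 18.3, 32.1, 37.3 and 30.3 CPM in chondrocyte-like cells, 20.6, 18.8, 35.7 and 25.6 CPM in osteolineage-like cells and at most 1.69 CPM in LepR-like stroma. Tll1, Adamts3 and Adamts14 therefore gave few counts to compare. At a minimum mean of 5 CPM over the day-40 graft and the sham, P4ha3, Colgalt2, Tll1, Adamts3 and Loxl4 stayed out of the comparison in LepR-like stroma. P4ha3, P3h2, Colgalt2, Tll1 and Adamts3 did so in osteolineage-like cells, P4ha3, Tll1 and Adamts14 in chondrocyte-like cells, Tll1 and Adamts3 in fibroblast-like cells, and P4ha3, Kdelr3, Tll1, Adamts3, Adamts14, Loxl1, Loxl3 and Loxl4 in endothelium.

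In LepR-like stroma the day-40 graft had far more collagen message than the day-40 sham, with modest differences in the machinery. Of 35 members at a mean of 5 CPM or more, 6 were called higher in the graft (P4ha2, Colgalt1, Creb3l1, Kdelr3, Pcolce and Pcolce2) and none lower, where a call needs a 1.5-fold difference and a 95% interval off 1. In the same cells 8.47% of the 10653 genes tested were called higher and 5.16% lower, so both counts are small and the lower calls are near the background. Pcolce2 is in the count of 6, but its low level is not read as expression in this class, as set out below. The median log2 ratio of the members was 0.23 against 0.05 over all genes tested. By step it was 0.14 for folding, 0.18 for lysine modification, 0.19 for secretion, 0.38 for cleavage and 0.33 for crosslinking. On a list of 22 collagen genes, 12 of 21 measured were called higher and none lower, with a median log2 ratio of 1.06. The summed level of that list was 3151, 5695, 7024 and 11850.4 CPM in the 4 libraries, and the ratio of graft to sham was 2.08 (2.07 to 2.10). The ratio for the summed members was 1.15 (1.14 to 1.16), and for 19 general chaperones and stress genes of the endoplasmic reticulum 0.986 (0.978 to 0.994).

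**Figure D2:**
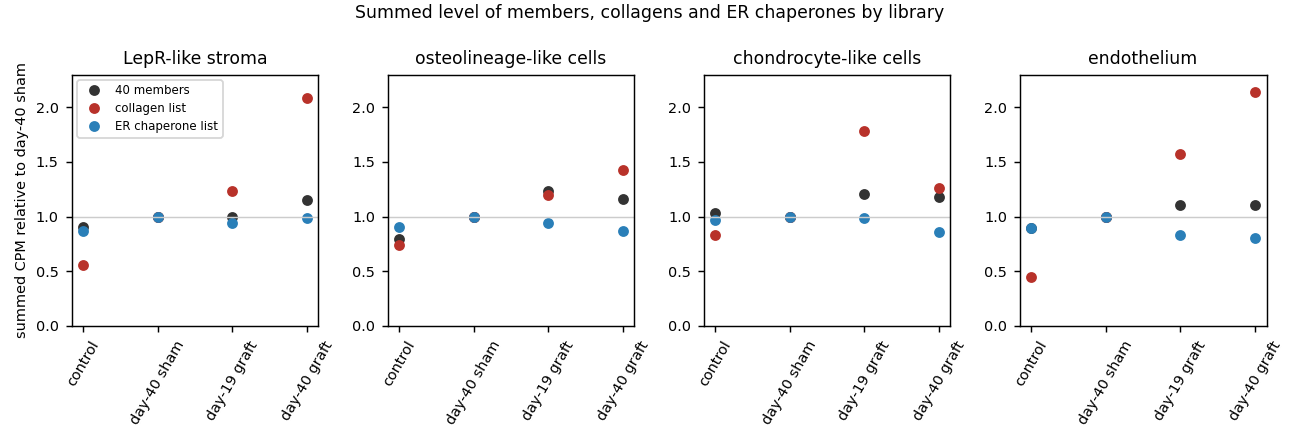
Summed CPM of the 40 members, of 22 collagen genes and of 19 general endoplasmic reticulum (ER) chaperone and stress genes in each library, divided by the day-40 sham, in 4 classes; each point is 1 library. In LepR-like stroma and endothelium the collagen point of the day-40 graft lies above 2 while the members' point lies below 1.2, and the chaperone points stay at or below 1 in both grafts in the 4 classes.

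P4ha2, a catalytic subunit of prolyl 4-hydroxylase, differed most among members above 20 CPM. It was at 11.9 CPM in the control, 16.7 in the sham, 23.7 in the day-19 graft and 49.3 in the day-40 graft, and the day-40 graft was 2.96-fold higher (2.59 to 3.38) than the sham. Its paralogue P4ha1 was at 64.6, 99.6, 95.9 and 118 CPM and was not called. P4hb, the shared disulfide isomerase subunit, was at 271, 365, 384 and 379 CPM, so P4ha2 alone of the 3 subunit genes was called. Serpinh1 was at 707, 766, 855 and 1099 CPM, highest in the day-40 graft, where its ratio of 1.43 (1.40 to 1.47) lay under the fold used for a call. P4ha2 UMIs were seen in 4.21%, 12.6%, 14.7% and 27.5% of LepR-like cells, and with every cell thinned to 2000 UMIs in 2.70%, 3.18%, 4.002% and 8.64%, so more cells held the message in the day-40 graft. In endothelium the thinned share was 1.37%, 3.06%, 1.87% and 3.98%. The genes of the prolyl 3-hydroxylase complex were not called: P3h1 was at 29.6, 44.7, 44.9 and 52.3 CPM, its partner Crtap at 213, 173, 143 and 132 CPM and Ppib at 1273, 949, 831 and 929 CPM. P3h2, which prefers collagen IV, was at 30.2, 42.8, 43.2 and 39.7 CPM. Of the 12 folding members measured, P4ha2 was the single one called.

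The isomerases of the FKBP family, which act on procollagen prolines, also stayed under the fold used. Fkbp10, whose loss causes brittle bones with contractures, was at 73.3, 92.9, 114 and 121 CPM. Fkbp9 was at 153, 253, 218 and 222 CPM and Fkbp7 at 247, 135, 129 and 129 CPM, with the control apart from the other 3 libraries in both. Tmem38b was at 28.6, 22.04, 27.04 and 26.996 CPM.

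For lysine modification, Colgalt1 was called. It was at 75.4 CPM in the control, 105 in the sham, 121 in the day-19 graft and 163 in the day-40 graft, and the day-40 graft was 1.54-fold higher (1.45 to 1.64) than the sham, but the ratio was 1.499 with median-ratio scaling and 1.453 with cells thinned to equal depth, which drops the call. The lysyl hydroxylases were not called: Plod1 was at 32.96, 36.6, 38.96 and 45.2 CPM, Plod2 at 37.6, 67.7, 79.2 and 74.002 CPM and Plod3 at 55.8, 84.8, 87.1 and 99.7 CPM. P3h3 and P3h4, scaffold proteins of the lysyl hydroxylase complex, were at 91.5, 133, 119 and 133 CPM and 76.1, 58.6, 61.7 and 62.5 CPM, with the day-40 graft close to the sham in both.

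Secretion genes gave 2 calls of 8. Creb3l1 was at 23.1 CPM in the control, 43.5 in the sham, 49.5 in the day-19 graft and 77.2 in the day-40 graft, and the day-40 graft was 1.77-fold higher (1.62 to 1.94) than the sham. Kdelr3, a receptor that returns chaperones to the endoplasmic reticulum, was at 58.6, 52.3, 54.3 and 82.6 CPM and was 1.58-fold higher (1.45 to 1.72) in the day-40 graft. That ratio lay between 1.40 and 1.499 under 4 of the 11 other settings tried, without the call. The cargo receptors of procollagen, Mia3 (TANGO1) and Mia2 (cTAGE5), were level over the 3 deeper libraries, at 109, 196, 198 and 190.4 CPM and 55.1, 86.998, 91.6 and 88.99 CPM. The COPII coat genes Sec23a and Sec24d were at 21.8, 31.4, 30.6 and 35.7 CPM and 34.96, 51.9, 46.2 and 63.5 CPM, Creb3l2 was at 72.6, 120.3, 108 and 126 CPM and Kdelr2 at 307, 211, 224 and 241 CPM. A list of 15 other COPII and export genes had no call in either direction and a median log2 ratio of 0.24.

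Propeptide cleavage gave 2 calls of 5 measured. Pcolce was at 482 CPM in the control, 384 in the sham, 408 in the day-19 graft and 622 in the day-40 graft, and the day-40 graft was 1.62-fold higher (1.57 to 1.67) than the sham, while the sham and day-19 graft lay below the control. Pcolce2 was at 3.47, 7.27, 11.04 and 16.95 CPM and was 2.33-fold higher (1.89 to 2.89). This low level has to be set beside chondrocyte genes: Pcolce2 in LepR-like stroma was 0.163%, 0.5002%, 0.599% and 0.588% of its chondrocyte-like level, and the cartilage genes Acan and Cnmd were 0.136%, 0.485%, 0.466% and 0.629% and 0.247%, 0.350%, 0.416% and 0.812% of theirs. The 3 genes lay in much the same small ratio to chondrocyte-like cells in each library. The 10 cells richest in Pcolce2 held 46.2%, 48.0%, 63.6% and 18.9% of its UMIs in LepR-like stroma. The part of free RNA and of these few cells was not tested, and the Pcolce2 value is not read as expression in LepR-like stroma. Bmp1, at 79.1, 152, 163 and 198 CPM, and Adamts2, at 299, 548, 513 and 452 CPM, were not called.

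No crosslinking gene of LepR-like stroma reached the fold in this comparison. Lox was at 234, 358, 315 and 414 CPM, Loxl1 at 279, 346, 399 and 421 CPM, Loxl2 at 66.1, 134, 147 and 176 CPM and Loxl3 at 45.9, 62.5, 61.2 and 89.2 CPM. The day-40 graft held the highest level of each of the 4, with ratios to the sham of 1.16, 1.22, 1.31 and 1.43 in that order, and intervals off 1 in all 4. The substrates differed far more: Col1a1 was at 170.4, 359, 530.4 and 1713 CPM and Col3a1 at 82.1, 175, 284 and 675 CPM, and the day-40 graft was 4.77-fold higher (4.64 to 4.90) and 3.87-fold higher (3.72 to 4.02) than the sham. These Col1a1 levels were 0.310%, 0.507%, 0.609% and 1.62% of those in osteolineage-like cells, and Bglap, an osteoblast gene, was at 0.0954%, 0.127%, 0.127% and 0.348% of its level there. Endothelium held Col1a1 at 18.8%, 62.9%, 25.7% and 12.4% of the LepR-like level, so free RNA can give much of the low level in the sham, and its part in the ratio was not tested. Of 16 measured extracellular partners of collagen assembly, 5 were called higher (Lum, Postn, Tgm2, Mmp14 and Mrc2). Among these Postn, which helps place Bmp1 on the matrix, was at 18.95, 14.9, 28.2 and 47.01 CPM and Lum, a fibril-spacing proteoglycan, at 139, 76.5, 93.8 and 138 CPM. Of the markers of other classes, the 12 osteolineage markers, all with UMIs, had the highest sum in LepR-like stroma, at 9925 CPM in the control, 8788 in the sham, 7388 in the day-19 graft and 3574 in the day-40 graft. Ribosomal protein genes took 7.16%, 4.97%, 5.80% and 7.84% of the class UMIs. The 12 pericyte markers all had UMIs in the same class and summed to 297, 337, 421 and 686 CPM while the 12 chondrocyte markers, 11 of them with UMIs in the control, summed to 106, 322, 428 and 464 CPM. The 19 haematopoietic markers summed to 993, 666, 974 and 64.3 CPM. The 4 markers of cycling cells summed to 11.5, 4.96, 4.83 and 69.3 CPM, highest in the day-40 graft. The part of these cells and of the ribosomal share in the ratios was not tested.

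**Figure D3:**
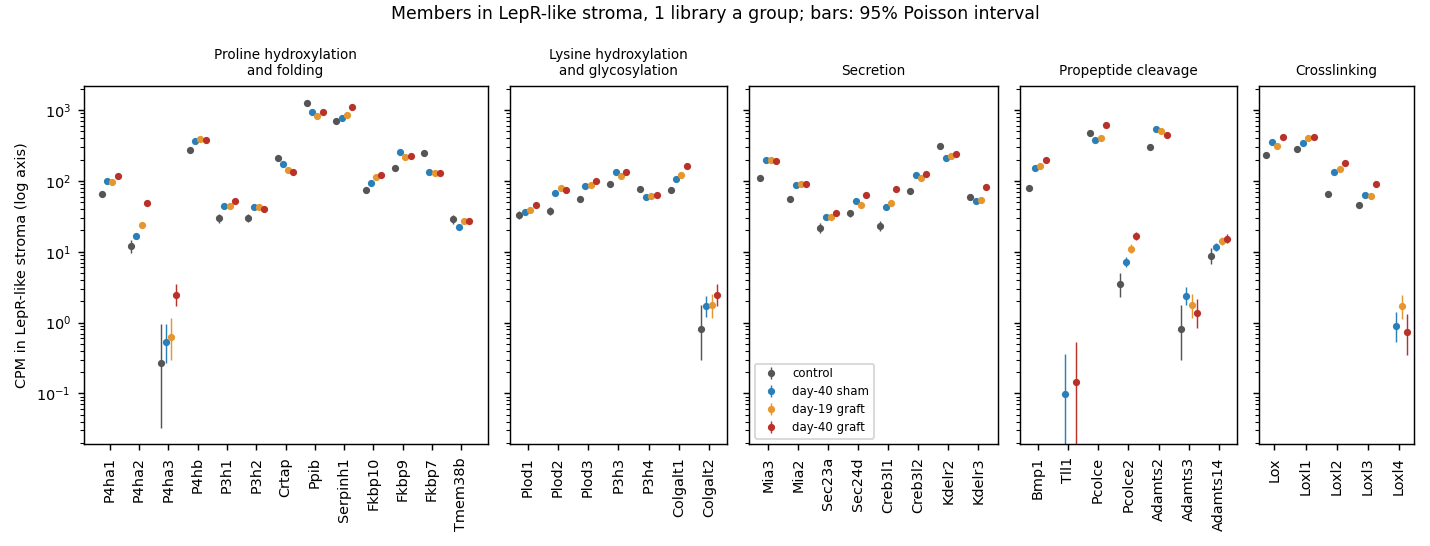
Level of each member in LepR-like stroma, in CPM on a log axis, by step; each point is 1 library, the bar is its 95% Poisson interval, and points at 0 are not drawn. P4ha2, Colgalt1, Creb3l1, Kdelr3 and Pcolce have their day-40 graft point above the other 3 libraries, and Mia3, Mia2 and Kdelr2 do not.

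Most LepR-like cells of the day-40 graft lay in a separate cluster, found without the members and the collagens: it held 19 of 1926, 44 of 2232, 716 of 2007 and 1163 of 1521 LepR-like cells in the 4 libraries. Within the day-40 graft few members differed between that cluster and the other LepR-like cells. Of 35 members measured, 2 were called higher in the cluster (Loxl1 and Loxl2) and 1 lower (Loxl3), beside backgrounds of 4.63% and 5.96%. Loxl1 was at 463 CPM in the cluster and 293 CPM outside it, and Loxl3 at 77.3 and 126 CPM. In the day-19 graft, P4ha2 and Creb3l1 of 35 members were called higher in the cluster and Pcolce2 lower, beside backgrounds of 3.43% and 3.1%. There P4ha2 was at 32.7 CPM in the cluster and 18.4 CPM outside, and Creb3l1 at 66.3 and 39.6 CPM.

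Outside that cluster members were also called between the day-40 libraries. Among the other LepR-like cells, 358 in the day-40 graft and 2188 in the sham, 7 of 35 members were called higher (P4ha2, Serpinh1, Plod1, Creb3l1, Kdelr3, Pcolce2 and Loxl3) and Adamts2 lower, beside backgrounds of 10.5% and 6.48%. Pcolce2, not read as expression in this class, is among the 7. P4ha2 was 2.52-fold higher (2.06 to 3.08) there, Creb3l1 1.73-fold higher (1.498 to 1.99) and Kdelr3 1.81-fold higher (1.60 to 2.06). Pcolce, at 501 CPM against 381 CPM, and Colgalt1, at 139.6 against 105 CPM, fell short of 1.5-fold without the cluster. Adamts2 was at 333 CPM against 548 CPM, 1.64-fold lower (1.55 to 1.75). P4ha2 and Creb3l1 were thus called higher both in the whole class and outside the cluster, whereas Pcolce and Colgalt1 were higher outside it but short of the fold. Inside the cluster, which held 44 sham cells, Pcolce was at 550 CPM in the sham and 662 CPM in the day-40 graft. Colgalt1 was at 132 and 170 CPM there, Creb3l1 at 60.8 and 78.04 CPM and P4ha2 at 17.7 and 51.7 CPM. The cells outside the cluster were an unlike mix in the 2 libraries. A cluster led by Adcyap1r1 held 1244 cells of the sham and 116 of the day-40 graft. A cluster named osteolineage-like held 584 LepR-like cells over all libraries. The part of this mix in the ratios was not tested.

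Short letter motifs were searched, on both strands, in the 250 bases upstream of each RefSeq start site of build GRCm38.p6, because Creb3l1, P4ha2 and Kdelr3 were called together. RefSeq windows were matched for 27 of the 40 members, with 31 windows. ACGTG, the core shared by several stress and hypoxia elements, was in windows of 13 members, and in 16.6% of all 32851 windows. TGACGTG, which contains it and resembles the element of the CREB3 family, was in windows of Mia3, Sec24d, Kdelr3 and Adamts3, and in 1.65% of all windows. TGACGT was in windows of 7 members, and in 6.47% of all windows, and TATAAA and CCAAT in windows of 3 and 9 members, and in 12.4% and 33.8% of all windows. CCAAT and CCACG 9 bases apart, the classic layout of the endoplasmic reticulum stress element, and CAGA next to CAGA were in no member's window, and in 0.113% and 1.98% of all windows. A match is a description of letters and not a bound site. The stretches around the match are shown for P4ha2 and Kdelr3, called higher above, and for Serpinh1 and Mia3, which were not, each read 5′ to 3′ on the gene's strand. Capitals mark 1 match in each, of ACGTG in P4ha2 and Serpinh1 and of TGACGTG in Mia3 and Kdelr3. The P4ha2 stretch lies inside the annotated gene, off its exons.
P4ha2 (chr11:54100786-54100910, plus strand): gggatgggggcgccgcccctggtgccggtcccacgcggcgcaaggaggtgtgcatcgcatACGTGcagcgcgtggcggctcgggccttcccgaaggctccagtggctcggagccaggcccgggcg
Serpinh1 (chr7:99353346-99353470, minus strand): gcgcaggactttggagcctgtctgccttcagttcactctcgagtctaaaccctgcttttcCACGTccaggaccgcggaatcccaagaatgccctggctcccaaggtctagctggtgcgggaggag
Mia3 (chr1:183369585-183369711, minus strand): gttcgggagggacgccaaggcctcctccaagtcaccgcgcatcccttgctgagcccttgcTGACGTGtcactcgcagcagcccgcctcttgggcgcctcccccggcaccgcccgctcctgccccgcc
Kdelr3 (chr15:79516319-79516407, plus strand): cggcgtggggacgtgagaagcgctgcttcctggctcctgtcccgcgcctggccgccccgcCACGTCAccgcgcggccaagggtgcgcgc
In Kdelr3 and Serpinh1 the motif stands on the other strand, so its reverse complement is in capitals. Its nearer end lies 23 bases upstream of the start site in Kdelr3, 74 in P4ha2, 80 in Mia3 and 167 in Serpinh1.

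In osteolineage-like cells the 2 calls between the day-40 libraries were of crosslinking genes. Of 35 members measured, Lox and Loxl2 were called higher in the day-40 graft and none lower, beside backgrounds of 2.34% and 13.6% of 9592 genes. Lox, the main lysyl oxidase of collagen I, was at 241 CPM in the control, 377 in the sham, 493 in the day-19 graft and 605 in the day-40 graft, and the day-40 graft was 1.61-fold higher (1.51 to 1.71) than the sham. Loxl2 was at 38.7, 60.6, 99.3 and 111 CPM and 1.83-fold higher (1.57 to 2.14). The 10 cells richest in Loxl2 held 68.8%, 68.1%, 59.3% and 50% of its UMIs in the class, and the rest lay at 13.5, 21.9, 44.4 and 59.8 CPM, so few cells carry the class level. Loxl1 went the other way in the level, at 102, 99.3, 60.4 and 66.7 CPM, without a call here. It was nearly absent from the Bglap-high cluster described below, which was 67 of 181 cells in the sham and 147 of 244 in the day-40 graft. Outside that cluster Loxl1 was at 222 CPM in the sham and 241 CPM in the day-40 graft, and the part of this mix was not tested. The median log2 ratio of the members was 0.21 while that of all genes was -0.22. Collagens took 134784 CPM of the sham total and 192323 CPM of the day-40 graft total, and by construction CPM of other genes fall as these rise. Median-ratio scaling, which moves the whole distribution by 0.23 on the log2 scale, gave 13 members higher in place of 2, and the count lay between 4 and 12 under 5 other settings. The number of osteolineage members called in this comparison therefore depends on the scaling and on the cells taken.

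The other osteolineage members did not reach the fold over the sham. Serpinh1 was at 1618 CPM in the control, 1975 in the sham, 2633 in the day-19 graft and 2269 in the day-40 graft, the highest level of any folding member there. The hydroxylases P4ha1 and P4ha2 were at 79.8, 165, 228 and 234 CPM and 31.4, 60.6, 93.9 and 79.6 CPM, and P4hb at 294, 462, 534 and 421 CPM. P3h1 was at 56.8, 119, 154 and 127 CPM, Fkbp10 at 193, 251, 372 and 289.6 CPM and Fkbp9 at 95.5, 228, 268 and 274 CPM. In each of these the control was lowest and the day-19 graft at or near the top. Plod2, at 395, 571, 493 and 531 CPM, differed little between the 3 deeper libraries. For secretion, Creb3l1 was at 164, 286, 406 and 393 CPM, Kdelr2 at 493, 495, 719 and 653 CPM, Kdelr3 at 138, 179, 253 and 225 CPM, and the coat genes Sec23a and Sec24d at 45.9, 69.6, 84.3 and 72.5 CPM and 55.6, 86.4, 97.9 and 89.5 CPM. Both grafts lay above the sham in all 5, by less than 1.5-fold. For cleavage, Bmp1 was at 254, 432, 423 and 463 CPM, Pcolce at 366, 436, 652 and 565 CPM and Adamts2 at 127, 265, 199.6 and 323 CPM.

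A wide contrast of the machinery was found inside the osteolineage-like class. A cluster with the highest level of Bglap, the osteoblast hormone osteocalcin, held 48 of 128, 67 of 181, 151 of 288 and 147 of 244 osteolineage-like cells in the 4 libraries, and it was found without the members and the collagens. By construction a cluster that spends its UMIs on a few genes has most others at a lower CPM. In the sham, 17 of 36 members were called higher and 5 lower in it than in the other osteolineage-like cells, where 4.46% of genes were called higher and 51.3% lower. In the day-19 graft 15 of 35 were higher and 5 lower, beside 4.66% and 44.7%, and in the day-40 graft 15 of 35 were higher and 7 lower, beside 4.44% and 58.1%. Clusters were drawn on the cells compared, so these counts describe the cluster and are no test of it.

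P3h1, Serpinh1, Fkbp9, Fkbp7, P3h4, Sec23a, Sec24d, Creb3l1, Kdelr2, Kdelr3, P4ha2 and Lox were called higher in the Bglap-high cluster in all 3 deeper libraries. Serpinh1 was at 2648 against 1063 CPM in the sham, 3165 against 1498 in the day-19 graft and 2554 against 1447 in the day-40 graft. P3h1, which 3-hydroxylates a conserved proline of collagen I, was at 168 against 51.5 CPM in the sham, 198 against 61.1 in the day-19 graft and 149.8 against 62.4 in the day-40 graft. Lox was at 574 against 109 CPM in the sham, 629 against 203 in the day-19 graft and 717 against 282 in the day-40 graft, so its level outside the cluster was highest in the day-40 graft. Loxl1 was the reverse of Lox: it was at 8.77 against 222 CPM in the sham, 9.47 against 169 in the day-19 graft and 6.23 against 241 in the day-40 graft. Plod3 and Creb3l2 were also called lower in the cluster in all 3 libraries. P4hb and Ppib, which serve many secreted proteins, differed little, with P4hb at 493 against 420.3 CPM in the sham, 559 against 482 in the day-19 graft and 425 against 411 in the day-40 graft. Of 20 collagen genes in the sham, Col1a1, Col1a2, Col5a1, Col5a2, Col11a1 and Col11a2 were among 8 called higher in the cluster, beside 4.46% of all genes. Col3a1, Col4a1, Col4a2 and the Col6 chains were among 11 called lower, a count near the share of all genes called lower, 51.3%.

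Since this cluster was 67 of 181 osteolineage-like cells in the sham and 147 of 244 in the day-40 graft, the comparison was repeated inside it. There Plod3, Loxl2 and Loxl4 were called higher and none lower, out of 35 measured, beside backgrounds of 2.85% and 5.98%. Loxl2 was at 70.7 CPM in the sham and 119.8 CPM in the day-40 graft, 1.69-fold higher (1.41 to 2.05). Lox was at 574 and 717 CPM, a ratio of 1.25 (1.17 to 1.34), under the fold used. In the other osteolineage-like cells Lox was at 109 and 282 CPM, 2.59-fold higher (2.16 to 3.11). The Loxl2 call thus held inside the Bglap-high cluster, and the Lox call did not.

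**Figure D4:**
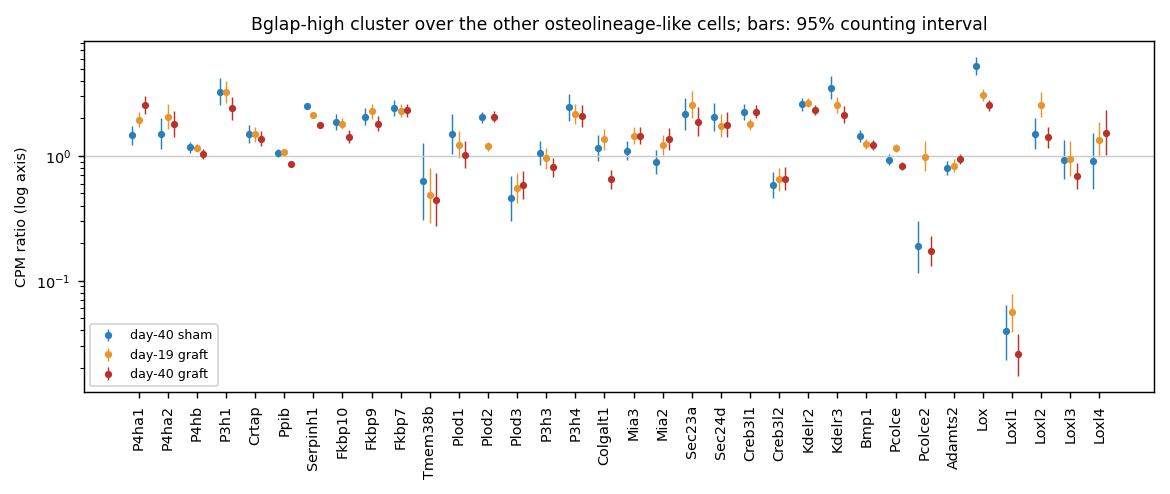
Ratio of CPM in the Bglap-high cluster to CPM in the other osteolineage-like cells, on a log axis, for the 34 members measured in all 3 deeper libraries; each point is 1 library and the bar its 95% counting interval. P3h1, Serpinh1, Kdelr2, Kdelr3 and Lox lie above 1 in all 3 libraries, Loxl1 lies below 0.06, and Pcolce2 lies below 0.2 in the sham and the day-40 graft and near 1 in the day-19 graft.

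In chondrocyte-like cells 3 of the 5 crosslinking genes were called lower in the day-40 graft. Of 37 members measured, 8 were called lower in the day-40 graft than in the sham (P4ha2, P3h2, Creb3l1, Pcolce, Adamts2, Lox, Loxl2 and Loxl3) and Pcolce2 alone higher, beside backgrounds of 6.36% lower and 1.47% higher among 10093 genes. The median log2 ratio of the members was -0.08 against -0.03 over all genes. Pcolce2 was at 2127 CPM in the control, 1453 in the sham, 1845 in the day-19 graft and 2882 in the day-40 graft, and the day-40 graft was 1.98-fold higher (1.95 to 2.02) than the sham. Lox was at 13.5, 64.3, 38.4 and 20.8 CPM and 3.09-fold lower (2.74 to 3.48). Loxl2, known in chondrocyte differentiation, was at 93.1, 169, 150.2 and 89.9 CPM and 1.89-fold lower (1.77 to 2.01), and Loxl3, needed for cartilage and palate, at 43.8, 90.7, 90.7 and 55.4 CPM and 1.64-fold lower (1.502 to 1.79). All 3 were lowest of the deeper libraries in the day-40 graft, and the control was below the sham in each.

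P4ha2 was at 113, 217, 172 and 134 CPM and 1.63-fold lower (1.54 to 1.72), whereas P4ha1, the more abundant subunit, was at 251, 397, 373 and 331 CPM without a call. P3h2 was at 15.9, 44.6, 44.1 and 27.1 CPM and 1.65-fold lower (1.46 to 1.87), and Creb3l1 at 15.9, 38.7, 28.7 and 24.5 CPM and 1.58-fold lower (1.38 to 1.80). Pcolce was at 42.96, 136, 144 and 82.1 CPM and 1.66-fold lower (1.55 to 1.78). Adamts2 was low, at 6.36, 11.1, 6.18 and 6.11 CPM, and 1.81-fold lower (1.40 to 2.34), but its 10 richest cells held 52.8% of the sham UMIs and with cells thinned to equal depth the ratio turned, to 1.19. Apart from Pcolce2, the abundant members of cartilage were not called: Plod2 was at 721, 1009, 1215 and 916 CPM, Colgalt2 at 193, 265, 239.7 and 255 CPM, Serpinh1 at 1584, 1109.5, 1671 and 1379.9 CPM and Kdelr2 at 403, 319.8, 400.4 and 309 CPM. Colgalt1 was at 150.3, 171, 241 and 233 CPM, with both grafts above the sham by less than 1.5-fold. With clusters in place of the gate the ratios of Pcolce and P3h2 turned, to 1.43 and 1.44, and without the 10 richest cells of each gene 5 members were called lower in place of 8.

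A cluster marked by Prg4, the lubricin of the joint surface, moved with these values. It held 10 of 259, 110 of 414, 104 of 737 and 54 of 978 chondrocyte-like cells, and the largest cluster held 62, 215, 378 and 691. In the sham the Prg4-high cells had Pcolce at 444 CPM against 33.4 CPM in the largest cluster, Lox at 168 against 20.4 CPM and P3h2 at 147 against 13.6 CPM, whereas Pcolce2 was at 119.7 against 1855 CPM. The Prg4-high and the largest cluster thus held Pcolce and Pcolce2 in opposite measure. Within the largest cluster, 5 of 36 members were called lower in the day-40 graft (Creb3l1, Adamts2, Lox, Loxl2 and Loxl3) and P3h2 and Pcolce2 higher, beside backgrounds of 4.99% and 1.51%. There Lox was at 20.4 CPM in the sham and 4.43 CPM in the day-40 graft, and Loxl2 at 191 and 90.2 CPM. Pcolce was at 33.4 and 30.8 CPM, without a call, and P3h2 at 13.6 and 20.98 CPM, so its direction turned. The lower lysyl oxidases and the higher Pcolce2 held inside the largest cluster, and the lower Pcolce, P4ha2 and P3h2 did not. In the chondrocyte-like cells of neither cluster, 89 in the sham and 233 in the day-40 graft, Pcolce2 was at 1583 and 1490 CPM. Pcolce2 was thus not higher there. Lox was at 95.6 and 84.2 CPM and Loxl3 at 68.5 and 68.2 CPM in these cells. Loxl2 was at 138 and 86.7 CPM and P4ha2 at 188 and 105 CPM.

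**Figure D5:**
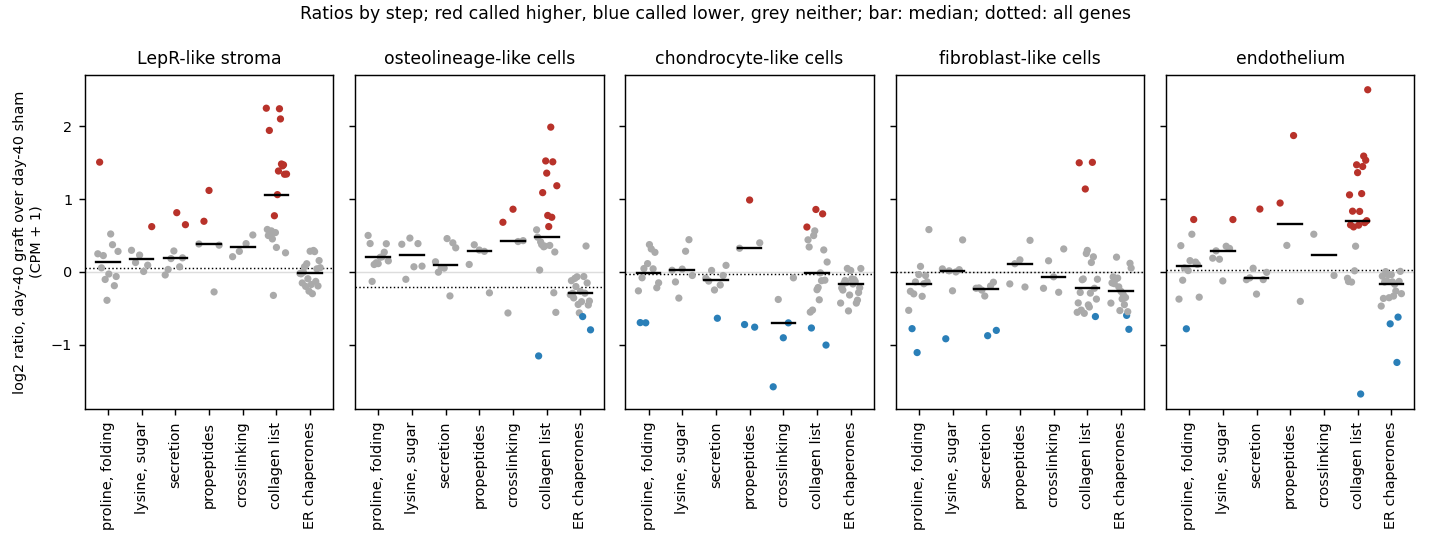
Log2 ratio of the day-40 graft over the day-40 sham, with 1 CPM added, for measured members of each step, for the collagen list and for the ER chaperone list, in 5 classes; each point is a gene, red where called higher, blue where called lower and grey otherwise, the short bar is the list's median and the dotted line the median of all genes tested. The collagen list lies above the 5 steps in LepR-like stroma, crosslinking lies lowest in chondrocyte-like cells, and the chaperone list has no gene called higher in any class.

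The other lists differed between classes in the same comparison. In osteolineage-like cells 9 of 21 collagens were called higher and 1 lower (median log2 ratio 0.48), in chondrocyte-like cells 3 of 19 higher and 2 lower (-0.01), and in fibroblast-like cells 3 of 21 higher and 1 lower (-0.23). Of the 19 chaperone and stress genes none was called higher in any of the 5 classes, and Sdf2l1 and Ern1 were lower in osteolineage-like cells and Xbp1 and Herpud1 in fibroblast-like cells. The ratio of their summed level was 0.871 (0.853 to 0.890) in osteolineage-like cells, 0.859 (0.849 to 0.869) in chondrocyte-like cells, 0.836 (0.808 to 0.865) in fibroblast-like cells and 0.808 (0.798 to 0.819) in endothelium. Higher collagen message in LepR-like stroma and endothelium thus came with no call of a general chaperone gene upward. None of the 15 COPII and export genes was called in any class. Extracellular partners gave 2 lower in osteolineage-like cells (Lum and Postn), 1 lower in chondrocyte-like cells (Dcn), and 3 higher and 1 lower in endothelium. Lum and Postn, called higher in LepR-like stroma, were at 629, 1441, 1097 and 712 CPM and 352, 397, 268 and 194 CPM in osteolineage-like cells.

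Fibroblast-like cells, 125 in the sham and 112 in the day-40 graft, showed 5 members lower in the day-40 graft (P4ha3, P3h2, Plod2, Creb3l1 and Kdelr3) and none higher of 38 measured, beside backgrounds of 3.51% and 4.46% of 10139 genes. Plod2 was at 85.8 CPM in the control, 309 in the sham, 196 in the day-19 graft and 163 in the day-40 graft, and the day-40 graft was 1.90-fold lower (1.63 to 2.22) than the sham. P4ha3 was 1.74-fold lower (1.19 to 2.60), and 10 cells held 53.6% of its UMIs in the sham and 65.9% in the day-40 graft. Creb3l1 was at 62.4, 69.7, 65.03 and 37.4 CPM and Kdelr3 at 46.8, 63.8, 45.9 and 36.05 CPM, 1.86-fold lower (1.34 to 2.62) and 1.77-fold lower (1.26 to 2.51). The 2 secretion genes that were called higher in LepR-like stroma were therefore called lower here, a difference between classes that was not tested. P3h2 was at 23.4, 23.6, 6.38 and 10.4 CPM, with few counts. With cells thinned to equal depth 2 members were called lower and 1 higher, and the ratio of P3h2 turned, to 1.72. Kdelr2, Pcolce, Pcolce2 and Loxl2, which lead their steps or come second, were not called, with Kdelr2 at 242, 185, 167 and 168 CPM. The 29 control cells are too few to place the control, and no comparison with it was made in this class.

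Endothelium, with the lowest summed level of this machinery, had 5 members called higher in the day-40 graft (Fkbp10, Colgalt2, Creb3l1, Bmp1 and Pcolce2) and 1 lower (P3h2) of 32 measured, beside backgrounds of 7.56% and 7.06% of 10386 genes. Pcolce2 is in the count of 5, but below it is not read as expression in endothelium. Fkbp10 was at 35.1 CPM in the control, 35.9 in the sham, 61.5 in the day-19 graft and 59.7 in the day-40 graft, and the day-40 graft was 1.66-fold higher (1.46 to 1.90) than the sham. Both grafts lay above both ungrafted libraries. Bmp1 was at 5.49, 13.2, 19.6 and 26.3 CPM and 1.997-fold higher (1.62 to 2.48), with the order control, sham, day-19 graft, day-40 graft. P3h2 was at 46.9, 60.8, 48.4 and 34.9 CPM and 1.74-fold lower (1.53 to 1.98). Colgalt2 and Creb3l1 were low, at 4.65, 5.52, 11.8 and 9.73 CPM and 2.66, 3.47, 4.83 and 7.14 CPM. Fkbp10 and Bmp1 fell to 1.44-fold and 1.45-fold with cells thinned to equal depth, where 3 members were called higher in all. With a minimum of 20 CPM, Fkbp10 was the single member called higher.

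These low levels were likewise set beside cartilage and bone genes. Pcolce2 in endothelium was at 1.16, 4.19, 5.31 and 18.03 CPM, which is 0.0547%, 0.288%, 0.288% and 0.626% of its chondrocyte-like level, beside 0.104%, 0.324%, 0.451% and 0.739% for Acan and 0.116%, 0.357%, 0.394% and 0.675% for Cnmd. It is at or below those cartilage genes in every library and is not read as expression in endothelium. Creb3l1 in endothelium was 1.62%, 1.22%, 1.19% and 1.82% of its osteolineage-like level. The osteoblast gene Bglap was at 0.0566%, 0.0999%, 0.0731% and 0.0962% of its level there. Other bone genes lay nearer, with Ifitm5 at 0.380%, 0.444%, 0.233% and 0.512% and Ibsp at 0.404%, 0.850%, 0.929% and 0.671%. Bmp1 was 2.16%, 3.05%, 4.64% and 5.68% of its osteolineage-like level. Colgalt2 was 2.41%, 2.09%, 4.93% and 3.81% of its chondrocyte-like level, several times the share of Acan. These 3 lie above the share that those cartilage or bone genes have, Creb3l1 least clearly, at 1.19% against 0.929% for Ibsp in the day-19 graft. LepR-like stroma also held Creb3l1 and Bmp1, and the part of free RNA in these levels was not tested.

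Several of these genes also divided by vessel type. Sinusoidal-like endothelium, the wide exchange vessels of marrow, had 1096, 833, 1061 and 561 cells and arterial-like endothelium 227, 309, 161 and 448, gated on markers that hold no member. Loxl2 was at 66.3, 114, 116 and 139 CPM in sinusoidal-like and 12.8, 4.27, 11.03 and 15.5 CPM in arterial-like endothelium, higher in sinusoidal-like endothelium in all 4 libraries, 26.8-fold higher (12.9 to 66.8) in the sham and 8.998-fold higher (6.77 to 12.2) in the day-40 graft. P3h2 was at 51.8, 72.8, 54.01 and 49.5 CPM in sinusoidal-like and 12.8, 15.3, 19.5 and 17.3 CPM in arterial-like endothelium. P3h3 was at 24.96, 34.98, 34.6 and 37.4 CPM in sinusoidal-like and 12.8, 6.10, 22.1 and 14.9 CPM in arterial-like endothelium. These 3 genes were thus on the sinusoidal side in every library. P4ha2 ran the other way, at 3.62, 5.92, 5.35 and 6.39 CPM in sinusoidal-like and 38.5, 42.7, 27.997 and 35.5 CPM in arterial-like endothelium. Bmp1 was likewise arterial, at 2.86, 4.84, 11.9 and 15.3 CPM in sinusoidal-like and 23.6, 40.9, 62.8 and 39.4 CPM in arterial-like endothelium. Lox was at 19.3, 23.8, 8.48 and 15.2 CPM in arterial-like endothelium, so Loxl2 was not the main lysyl oxidase gene there in every library. Serpinh1 was higher in arterial-like endothelium, most in the day-19 graft, at 252, 321, 395 and 438 CPM in sinusoidal-like and 313, 381, 611 and 507 CPM in arterial-like endothelium. The sinusoidal-like cells were 833 of 1262 endothelial cells in the sham and 561 of 1283 in the day-40 graft, so the class values of Bmp1 and P3h2 move together with that mix, whose part in them was not tested. The endothelial cells of the libraries also lay in different clusters: one with Stab2 and Selp among its leading genes held 81, 650, 492 and 112 cells, and one led by Ramp3 held 58, 104, 508 and 524, and the part of this shift was not tested either. Inside sinusoidal-like endothelium, Bmp1 was 3.17-fold higher (2.12 to 4.82) in the day-40 graft and Fkbp10 1.62-fold higher (1.39 to 1.90), whereas P3h2, at 72.8 and 49.5 CPM, was not called.

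Collagens were called more often than the machinery in endothelium too. Of 21 measured collagens 15 were called higher in the endothelium of the day-40 graft and 1 lower, with a median log2 ratio of 0.70, against 0.12 for the members and 0.03 for all genes. Col4a1 and Col4a2, the chains of vessel basement membrane, were at 372, 717, 1388 and 1992 CPM and 272, 459, 834 and 1182 CPM, and 2.78-fold higher (2.70 to 2.85) and 2.58-fold higher (2.49 to 2.67) in the day-40 graft than in the sham. The summed collagen level was 954, 2132, 3354 and 4559.7 CPM, and the ratio of day-40 graft to sham was 2.14 (2.10 to 2.17), against 1.11 (1.09 to 1.12) for the members. Plod1 and Plod3, the lysyl hydroxylases of this class, were at 158, 173, 219 and 197 CPM and 37.9, 58.2, 57.6 and 65.7 CPM, without a call. The cartilage collagens Col2a1, Col9a1 and Col10a1 are among the 15, with Col2a1 at 9.97, 77.5, 260.4 and 162 CPM here and 14487, 17922, 34460.4 and 22712 CPM in chondrocyte-like cells, and the part of free RNA in these 3 calls was not tested. The chaperone list had no gene called higher and 3 lower (Dnajb9, Xbp1 and Atf4).

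The day-19 graft was compared with the control, and the control stood apart from all other libraries. In LepR-like stroma 14 of 35 members were called higher and 2 lower in the day-19 graft than in the control, beside backgrounds of 28.3% and 8.69% of 10471 genes. The sham over the control gave 14 higher and 1 lower, beside 26.2% and 10.9%. The sham, which has no graft either, thus gave a like count, and both comparisons share the control. The cells compared with the control lay largely in other clusters: one cluster of LepR-like cells held 1082 control cells and 7, 7 and 2 of the other libraries, and one of endothelium 971 control cells and 95, 118 and 22. The part of this in the ratios was not tested. Set against the sham instead, the day-19 graft had 1 member called higher (Pcolce2) and none lower in LepR-like stroma, beside 2.8% and 2.27%. Pcolce2 is not read as expression in this class. This exchange of comparator was added after the data had been seen. The median log2 ratio of the members was 0.51 over the control, against 0.27 for all genes, and 0.07 over the sham. Median-ratio scaling moved the comparisons with the control by -0.13 to -0.28 on the log2 scale, and in LepR-like stroma it left 6 members higher and 5 lower in the day-19 graft, and 7 higher and 5 lower in the sham.

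The LepR-like members called higher over the control had their low point in the control rather than a peak in the day-19 graft. Loxl2 was 2.23-fold higher (2.02 to 2.46) and Plod2 2.10-fold higher (1.85 to 2.40) in the day-19 graft than in the control, and in neither was the day-19 graft called against the sham. Bmp1, Creb3l1, Mia3 and Adamts2 were 2.06-fold higher (1.88 to 2.25), 2.14-fold higher (1.82 to 2.54), 1.82-fold higher (1.68 to 1.96) and 1.72-fold higher (1.64 to 1.80), from the levels given above. P3h1, Fkbp10, Plod3, Colgalt1 and Mia2 were called with 1.52-fold to 1.66-fold, and P4ha2 with 1.997-fold higher (1.58 to 2.54). Ppib and Fkbp7, which run the other way, were 1.53-fold lower (1.49 to 1.57) and 1.91-fold lower (1.79 to 2.03). P4ha2, Colgalt1 and Creb3l1 were called both here and between the day-40 libraries. For P4ha2 the day-19 graft over the sham was 1.42-fold higher (1.22 to 1.65), short of a call.

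Osteolineage-like cells gave the highest count over the control: 22 of 35 members were called higher and Loxl1 lower, beside 12.9% and 9.95% of 9451 genes. Against the background of 17.5% higher and 8.08% lower, the sham over the control gave 14 higher and 1 lower. Over the sham, the day-19 graft had P4ha2, Loxl2 and Loxl4 higher and Loxl1 lower, beside 2.93% and 11%. Outside the Bglap-high cluster Loxl1 was at 180, 222, 169 and 241 CPM, and the part of the cluster mix in its calls was not tested. Fkbp9 was 2.80-fold higher (2.24 to 3.56), P4ha1 2.85-fold higher (2.23 to 3.71), P4ha2 2.99-fold higher (2.02 to 4.61) and P3h1 2.72-fold higher (2.02 to 3.72) in the day-19 graft than in the control. These 4 hydroxylation and isomerase genes were lowest in the control and not called between the day-40 libraries. Pcolce2 was at 4.84, 32.8, 42.7 and 40.6 CPM, a level carried by few cells: the 10 richest held 100% of its UMIs in the control, 86.3% in the sham, 46.5% in the day-19 graft and 73.3% in the day-40 graft. Among members not yet given, Plod1 was at 35.1, 40.7, 56.1 and 53.2 CPM, Plod3 at 20.6, 29.2, 37.1 and 40.6 CPM and Colgalt1 at 64.1, 86.1, 100.2 and 90.96 CPM, and Mia3 was at 91.9, 156, 166 and 172 CPM. All 4 were lowest in the control. The control class holds 128 cells and 827034 UMIs, and thinning every cell to 2000 UMIs gave 11 members higher in place of 22 and turned the ratios of Plod3, Sec24d and Loxl1, to 0.811, 0.905 and 1.04. Median-ratio scaling gave 6 higher in the sham over the control in place of 14.

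In chondrocyte-like cells 19 of 37 members were called higher in the day-19 graft than in the control and none lower, beside 14.5% and 7.27% of 9793 genes, and the sham over the control gave 14 and none, beside 22.2% and 8.62%. Over the sham, Serpinh1 was higher in the day-19 graft and Adamts2 and Lox lower, beside 3.22% and 7.23%. Serpinh1 was 1.51-fold higher (1.47 to 1.54) and Lox 1.68-fold lower (1.504 to 1.87). Lox was thus called lower than in the day-40 sham in both grafts. The Prg4-high cluster, where Lox was at 168 CPM in the sham, held 110 of 414 sham cells and 104 of 737 day-19 cells. The part of this mix in the Lox ratio was not tested. Folding members with the control lowest were P3h1 at 60.5, 82.4, 113 and 85.02 CPM, Fkbp10 at 119, 140.4, 179.9 and 144 CPM and Fkbp9 at 220.3, 331, 454 and 399 CPM. Plod1 was at 46.9, 59.02, 71.3 and 59.9 CPM, Plod3 at 37.4, 69.6, 70.8 and 53.9 CPM and P3h3 at 65.2, 101, 109 and 104 CPM. Mia3 was at 59.7, 118, 118 and 111 CPM and Bmp1 at 47.7, 60.7, 80.2 and 76.2 CPM. Of the 259 control cells 160 were under 2000 UMIs, against 13, 109 and 77 in the other libraries, and this depth gap stands beside every chondrocyte comparison with the control. Median-ratio scaling gave 11 members higher and thinning to equal depth 10, in place of 19.

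Endothelium gave 11 of 30 members higher and none lower over the control, beside 18.9% and 7.6% of 10218 genes, and the sham over the control gave 10 and 1, beside 20.3% and 8.89%. Over the sham the day-19 graft had Fkbp10 and Colgalt2 higher and P4ha2, Tmem38b and Lox lower, beside 3.69% and 4.21%. Fkbp10 was 1.71-fold higher (1.51 to 1.95) over the sham at day 19, and was therefore called over the sham in both grafts. Serpinh1 was 1.64-fold higher (1.55 to 1.74) over the control. P4ha1, at 27.1, 63.2, 48.4 and 48.5 CPM, was lower in both grafts than in the sham and lowest in the control. Mia3 and Mia2 were at 60.2, 114, 104 and 106 CPM and 50.5, 75.4, 76.3 and 71.1 CPM, and Kdelr2 at 182, 134, 152 and 134 CPM, again with the control apart from 3 libraries that lay close together. Median-ratio scaling gave 6 members higher over the control in place of 11, and 6 in place of 10 for the sham.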

How the data were processed

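Single-cell RNA was counted by the authors, who deposited gene by cell matrices of raw UMI counts; per the file headers these were written by Cell Ranger 5.0.0, while the submitters' processing notes name Cell Ranger 3.1.0 and build mm10. The 2 antibody features in Sham_D40 and Graft_D40, which no source used here explains, were left out. Cells with at least 500 genes, at least 1000 UMIs and at most 10% mitochondrial UMIs were kept, and doublets called by Scrublet in scanpy 1.11.5 (43 to 89 a library) were removed. The median was 3549 UMIs per kept cell in the control and 8606 to 9796 in the other libraries.

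Cells were gated by marker score with a margin of 0.1 over the second class, and clustered without the members and collagens. Counts were summed per class and library and divided by the class total (CPM). Ratios have exact conditional binomial 95% intervals, and log2 ratios have 1 CPM added. A call needs 1.5-fold, an interval off 1 and a mean of 5 CPM. With 1 library a group no test, SD or p-value was computed. The scripts were tested on simulated counts. Members, lists and the rule for named genes were chosen with earlier results of these data known: members at 20 CPM or more that were called in either main comparison, the highest member of each step and class, and those under 5 CPM. Other scalings, minimums, gates, cell sets and depths were tried. RefSeq promoter windows of build GRCm38.p6 were searched for 27 members that matched, with scipy 1.17.1 and numpy 2.4.6 used throughout.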

Additional observations from a re-analysis of the deposited data

How the results depend on the processing

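No paired analysis was possible because each group is 1 library. Of 1052 recalculations of a single gene's ratio under 14 settings, 869 kept direction and side of the 1.5-fold threshold, 163 kept direction under the threshold and 20 turned. Of 97 single-gene results, 12 were called under every setting run on them. Of 411 recalculations of list counts and medians, 343 stayed within 1.5 times the count or the spread allowed. The counts, medians and ratios that moved or turned are given next; the cause was not tested, except that leaving out cells, raising the minimum or exchanging the comparator changes what is counted. The exchange of the control for the sham, the omission of the graft-rich cluster, and the Bglap-high and largest chondrocyte-like clusters taken alone were chosen after seeing the data. Below, higher and lower count members called, a median is the members' median log2 ratio, and a value after a gene name is its ratio. With no minimum level, the day-40 graft over the sham gave 1 lower in LepR-like stroma, and 2 higher in chondrocyte-like cells. Without the graft-rich cluster, the day-40 graft over the sham gave 1 lower in LepR-like stroma. With median-ratio scaling, the day-19 graft over the control gave 6 higher, 5 lower and a median of 0.23 in LepR-like stroma, 11 higher and 1 lower in chondrocyte-like cells, and 6 higher, 1 lower and a median of 0.26 in endothelium. With median-ratio scaling, the sham over the control gave 7 higher, 5 lower and a median of 0.25 in LepR-like stroma, 6 higher in osteolineage-like cells, 9 higher and 5 lower in chondrocyte-like cells, and 6 higher, 2 lower and a median of 0.17 in endothelium. With median-ratio scaling, the day-40 graft over the sham gave 13 higher and a median of 0.43 in osteolineage-like cells. With the sham in place of the control, the day-19 graft over the sham gave 1 higher, 0 lower, a median of 0.0719 and Adamts2 at 0.938 in LepR-like stroma, 3 higher, a median of 0.27, Bmp1 at 0.979 and Adamts2 at 0.752 in osteolineage-like cells, 1 higher, 2 lower, a median of 0.11, P4ha2 at 0.790, P3h2 at 0.989, Creb3l1 at 0.742, Creb3l2 at 0.897, Lox at 0.596 and Loxl2 at 0.886 in chondrocyte-like cells, and 2 higher, 3 lower, a median of 0.14, P4ha1 at 0.767, Plod3 at 0.991 and Mia3 at 0.909 in endothelium. With the 20 most abundant genes left out of the total, the day-40 graft over the sham gave 5 higher in osteolineage-like cells. With clusters in place of the gate, the day-40 graft over the sham gave 12 higher and 1 lower in osteolineage-like cells, P3h2 at 1.44 and Pcolce at 1.43 in chondrocyte-like cells, and 2 higher in fibroblast-like cells. With clusters in place of the gate, the day-19 graft over the control gave 0 lower in osteolineage-like cells. With clusters in place of the gate, the sham over the control gave 1 lower in chondrocyte-like cells. With a stricter gate margin, the day-40 graft over the sham gave 4 higher and 1 lower in osteolineage-like cells. With a stricter gate margin, the day-19 graft over the control gave 0 lower in osteolineage-like cells, and 1 lower in chondrocyte-like cells. With cells thinned to equal depth, the day-40 graft over the sham gave 5 higher in osteolineage-like cells, 2 higher and Adamts2 at 1.19 in chondrocyte-like cells, 1 higher, 2 lower and P3h2 at 1.72 in fibroblast-like cells, and 3 higher in endothelium. With cells thinned to equal depth, the day-19 graft over the control gave 11 higher, 0 lower, Plod3 at 0.811, Sec24d at 0.905 and Loxl1 at 1.04 in osteolineage-like cells, and 10 higher, 1 lower and a median of 0.36 in chondrocyte-like cells. With cells thinned to equal depth, the sham over the control gave 6 higher and 0 lower in osteolineage-like cells, and 7 higher in chondrocyte-like cells. Without the 10 richest cells of each gene, the day-40 graft over the sham gave 9 higher and 1 lower in osteolineage-like cells, and 5 lower in chondrocyte-like cells. Without the 10 richest cells of each gene, the day-19 graft over the control gave 0 lower and a median of 1.085 in osteolineage-like cells, and a median of 0.86 in chondrocyte-like cells. Without the 10 richest cells of each gene, the sham over the control gave 0 lower in osteolineage-like cells. In the largest chondrocyte-like cluster alone, the day-40 graft over the sham gave 2 higher, 5 lower and P3h2 at 1.54 in chondrocyte-like cells. With a minimum of 20 CPM, the day-40 graft over the sham gave 1 higher in endothelium. With a minimum of 20 CPM, the day-19 graft over the control gave 7 higher in endothelium. With a minimum of 20 CPM, the sham over the control gave 4 higher in endothelium.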
